A study of Mus musculus with 21 samples.

Results

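Clu, Il1rn, Il33, Ly6a, Anxa1, Areg, Ereg, Ctgf and Cyr61 are 9 genes associated with repair of the gut epithelium or with the transcriptional co-activator YAP, and they were followed here in sorted mouse intestinal cells and in whole intestine. Every probe set (the group of short probes on the array that reads a transcript) whose only gene symbol was one of these names was taken, whatever its level. This gave 16 probe sets for 7 of the 9 genes, out of 34958 probe sets with 1 symbol for 18194 genes. Ctgf and Cyr61 are listed under their newer symbols Ccn2 and Ccn1. Ly6a, a surface protein also called Sca-1, and Areg (amphiregulin) had no probe set of that symbol in the annotation used and were not analysed here.

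The arrays came from mouse small intestine, and 20 of the 21 samples were cells positive for TdTomato, a red fluorescent protein that marked Mist1-positive cells per the labels. Mist1, encoded by Bhlha15, is a transcription factor of secretory cells. The cells were sorted into a CD24lo and a CD24hi fraction, CD24 being a surface protein found at high levels on Paneth cells, and each fraction was taken from 5 conditions with 2 arrays each. The conditions were untreated, Lgr5-ablated (loss of cells expressing the stem cell receptor Lgr5, with titles that carry the letters DT and no group given DT without ablation), irradiated with 10 Gy, doxorubicin (a drug that damages DNA), and NICD, which the labels leave unexplained and which is the usual abbreviation of the Notch intracellular domain. The last sample was 1 array of whole intestine, whose cell type is given as villi, and it entered no test. Strain, age, the alleles behind TdTomato, ablation and NICD, and the time after treatment are not given in the sources used here. An effect of the ablating agent itself cannot be told apart from the loss of Lgr5-expressing cells. No label says that replicates are different animals, and p-values therefore measure only how far these samples spread, which may be technical.

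Signals are MAS5 intensities, scaled to the same trimmed mean on every array, and the median signal of a sorted array ran from 101 to 158, against 62.7 in whole intestine. Over all probe sets, replicate arrays had a Pearson correlation of 0.955 to 0.981. NICD CD24hi replicate 2 stood apart, with an actin 3′ to 5′ signal ratio of 1.03 against up to 1.58 elsewhere and the highest signals of the bacteriophage cre spike-in, so calls that rest on it are also given without it. Bhlha15 was higher in CD24hi than in CD24lo cells of untreated mice by 2.10 ± 0.26 and Cd24a by 1.14 ± 0.18 (log2 difference ± SE; limma, adjusted p = 6.57e-05 and 0.000403). Lgr5 itself had log2 differences of -1.42 ± 0.56 in CD24lo and -1.30 ± 0.56 in CD24hi cells after Lgr5 ablation (adjusted p = 0.585 and 0.455), so its fall did not pass the test in either fraction. All 7 measured epithelial markers were above the array median on at least 2 sorted arrays. Of 11 fibroblast and smooth muscle markers 1 was, with a summed signal of 245 to 1102 in sorted cells and 9048 in whole intestine. None of 4 neutrophil markers was, and their sum stayed at 21.7 to 124.

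In the repairing mouse intestine, cells can pass through a state that resembles fetal epithelium, in which Ly6a, Anxa1 and Clu are commonly expressed. The kinases of the Hippo pathway hold YAP in the cytoplasm. When they are inactive, YAP enters the nucleus, binds TEAD proteins on DNA and induces secreted matrix proteins such as Ctgf and Cyr61 and ligands of the EGF receptor such as Areg and Ereg. Il33 and Il1rn belong to the interleukin 1 family, whose members signal or restrain inflammation at epithelial surfaces.

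Promoters are shown for the 3 members that were detected and had an entry in the promoter set used here. Clu, Ereg and Ctgf had no entry in it. Each promoter is the 300 bases from 250 before to 50 after an annotated start site (build GRCm38.p6). Capitals mark GGAATG, the core letters bound by TEAD proteins, or TGANTCA, those bound by AP-1, on either strand. A GGAATG on the opposite strand reads CATTCC here. The first promoter of Cyr61 (chr3:145649936-145650235, minus strand) holds one at -103 to -98 from the start site, the first of Il33 (chr19:29924863-29925162, plus strand) one at -131 to -126, and the first of Il1rn (chr2:24336610-24336909, plus strand) a TGANTCA at -141 to -135.
Cyr61 promoter 1: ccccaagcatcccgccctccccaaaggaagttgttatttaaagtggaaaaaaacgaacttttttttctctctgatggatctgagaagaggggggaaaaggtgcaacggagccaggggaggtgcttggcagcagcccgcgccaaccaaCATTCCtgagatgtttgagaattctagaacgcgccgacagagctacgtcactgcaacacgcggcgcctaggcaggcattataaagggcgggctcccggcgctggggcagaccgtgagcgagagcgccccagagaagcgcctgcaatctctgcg
Il33 promoter 1: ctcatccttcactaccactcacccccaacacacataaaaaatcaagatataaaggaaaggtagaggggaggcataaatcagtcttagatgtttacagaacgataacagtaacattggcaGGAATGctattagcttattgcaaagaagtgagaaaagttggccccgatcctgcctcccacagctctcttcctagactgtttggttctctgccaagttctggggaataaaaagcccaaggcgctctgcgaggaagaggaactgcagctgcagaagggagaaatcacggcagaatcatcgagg
Il1rn promoter 1: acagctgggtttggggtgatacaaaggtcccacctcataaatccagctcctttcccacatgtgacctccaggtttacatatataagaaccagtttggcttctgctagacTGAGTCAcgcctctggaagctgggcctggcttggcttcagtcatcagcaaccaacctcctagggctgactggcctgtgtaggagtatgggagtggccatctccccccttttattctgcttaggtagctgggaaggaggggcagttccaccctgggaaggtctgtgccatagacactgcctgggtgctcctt
Over all 7 promoters listed for Il1rn (3, of which 2 overlap), Il33 (2), Anxa1 and Cyr61, GGAATG was in 5 and TGANTCA in 1. Of the 32851 mouse promoters of the same length, 14.66% hold GGAATG and 7.81% TGANTCA. The interferon-linked motifs GAS, searched as TTCNNNGAA, and ISRE, which 8.3% and 3.44% of all promoters hold, were in none of the 7 windows. A match describes letters only, and the arrays do not say which start site was used.

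Dim here means that no probe set of a gene exceeded its array's median signal on at least 2 of the 20 sorted arrays. Anxa1, Ereg and Ctgf were dim, and Clu, Il1rn, Il33 and Cyr61 were detected, with 12 of the 16 probe sets. Cyr61 was above the median on all 20 sorted arrays, Il33 on 9, Clu on 6 and Il1rn on 5. Anxa1 exceeded it on 1 array, and Ereg and Ctgf on none. Clu exceeded it only on arrays of Lgr5-ablated and NICD cells, and Il33 only on CD24lo arrays. Il1rn exceeded it only on arrays of Lgr5-ablated cells and 1 irradiated array. Apart from Cyr61, the detected genes thus entered the test through the groups where they are high. Counts of members past the threshold in those groups are therefore no independent support. They are set below beside the share of all 11854 tested genes that passed.

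**Figure D1:**
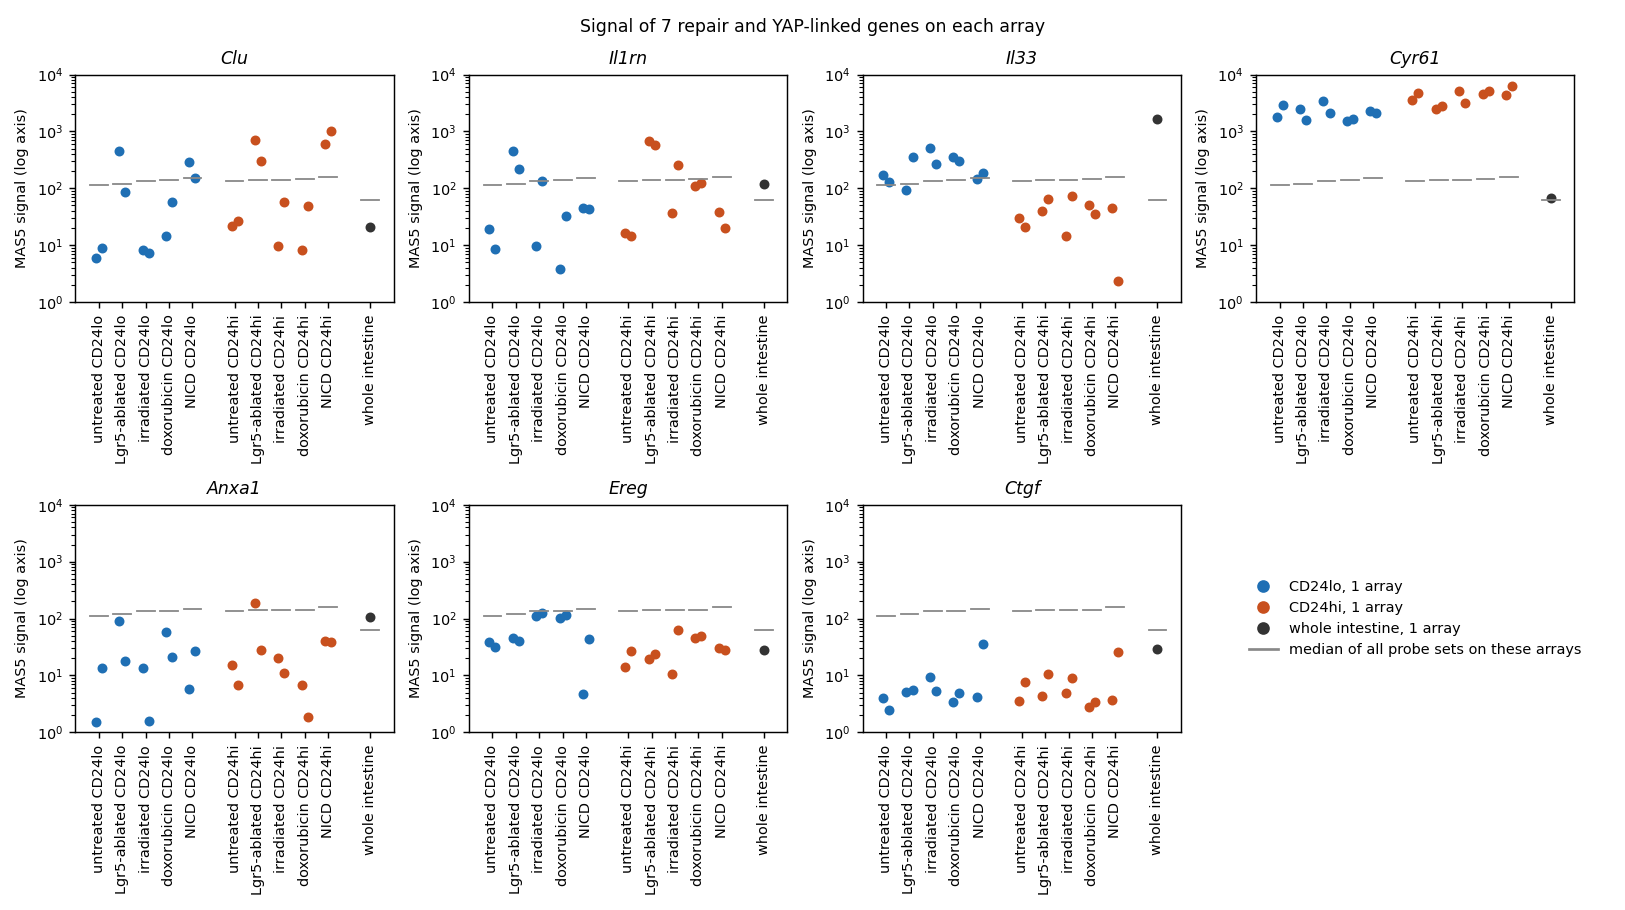
Signal (MAS5 intensity, log axis) of the leading probe set of 7 genes on each of 21 arrays, by group, with 1 point per array and a grey line at the mean of the medians of the group's arrays. Cyr61 lies above the line on every sorted array, Clu on most arrays of Lgr5-ablated and NICD cells, Il1rn on those of Lgr5-ablated cells and 1 irradiated array, Il33 on most CD24lo arrays, and Ctgf on none.

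Clu encodes clusterin, a secreted chaperone that also marks a population of stem-like cells in the injured mouse intestine. Its signal was high in both fractions after Lgr5 ablation and with NICD, and low in the other conditions. In CD24hi cells it was 21.9 and 26.5 in untreated mice, 709 and 299 after Lgr5 ablation, and 599 and 1029 with NICD. The ablated and NICD arrays all lay above the untreated ones, with no overlap. In CD24lo cells the signal was 5.84 and 9.03 in untreated mice, 452 and 85.6 after ablation, and 290 and 154 with NICD. Here too both groups lay above the untreated arrays. Ablated replicate 2 stayed under its array's median of 111, however, and NICD replicate 2 just under its array's median of 155. After irradiation the signal was 8.24 and 7.36 in CD24lo and 9.76 and 58.0 in CD24hi cells. With doxorubicin it was 14.3 and 57.9 in CD24lo and 8.16 and 48.1 in CD24hi cells. These 8 arrays were all below their medians, and apart from the doxorubicin CD24lo pair they overlapped the untreated arrays of their fraction.

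In the limma fit, Clu rose with NICD by 4.32 ± 0.71 in CD24hi (adjusted p = 0.00171) and by 3.29 ± 0.71 in CD24lo cells (adjusted p = 0.0119). These are log2 differences of signal + 16 with their SE, and since untreated signals were dim they understate the change. The untreated arrays are shared by all 4 treatments of a fraction. Clu was the only one of the 4 tested members past the threshold in these comparisons, where 6.56% and 14.4% of all genes passed in CD24hi and CD24lo cells. It rose after Lgr5 ablation by 3.57 ± 0.71 in CD24hi cells (adjusted p = 0.0192). In CD24lo cells the ablation difference of 3.22 ± 0.71 missed the threshold (adjusted p = 0.0793). In bulk RNA, a change in the share of cells that hold a transcript and a change in RNA per cell cannot be told apart. The difference of the NICD effect between fractions was 1.03 and that of the ablation effect 0.35, and neither passed (adjusted p = 0.534 and 0.996). No member passed any of the 4 tests of a difference between fractions, while 0.0169% of all genes did for ablation, 0.00844% for irradiation, 0.0337% for doxorubicin and 2.65% for NICD. After irradiation and doxorubicin the differences lay between -0.03 and 1.02, with none past the threshold.

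The NICD call in CD24hi cells held without any 1 of the 4 arrays, and without NICD CD24hi replicate 2 the value was 3.94 (adjusted p = 0.0346). In CD24lo cells it was lost without untreated replicate 1 (adjusted p = 0.0539) or NICD replicate 2 (adjusted p = 0.138). The ablation call in CD24hi cells was lost without untreated replicate 1 (adjusted p = 0.134), untreated replicate 2 (adjusted p = 0.12) or ablated replicate 1 (adjusted p = 0.238). In CD24lo cells Clu passed at 4.32 (adjusted p = 0.0307) when ablated replicate 2 was left out. Leukocyte markers moved with NICD in CD24lo cells. The summed signal of 9 such markers, leaving out Lyz2, was 4636 and 5818 with NICD against 808 and 1767 in untreated CD24lo cells, and Ptprc, the pan-leukocyte surface protein CD45, stood at 3211 and 4550 against 51.2 and 470. With Lyz2 the sums were 12744 to 14605 against 6850 to 7732. In CD24hi cells the sum was 1910 and 2088 with NICD, 1517 and 1347 after ablation and 1403 and 1401 untreated. Single markers in this sum moved in opposite directions. Ptprc read 648 and 290 with NICD, 319 and 263 after ablation and 127 and 80.8 untreated. Cd68 read 355 and 532 with NICD, 511 and 503 after ablation and 724 and 956 untreated. Other markers rose with NICD in CD24hi cells, namely 2 of 7 secretory markers (Chga at 4.02 ± 0.65 and Dclk1 at 3.01 ± 0.45, while Atoh1 fell at -0.76 ± 0.20), 2 of 6 enterocyte markers (Apoa4 at 2.25 ± 0.47 and Apoa1 at 1.91 ± 0.32), and 1 each of 7 epithelial (Krt20 at 2.06 ± 0.21), 5 crypt base (Smoc2 at 0.86 ± 0.22) and 9 leukocyte markers (Cd79a at 2.38 ± 0.63). Without replicate 2, Chga, Dclk1, Apoa1 and Krt20 still passed and the other 4 did not. The summed enterocyte signal was 20324 to 27901 there against 10924 to 15687 untreated, and the secretory sum 74228 to 133125 against 63794 to 82344. Krt20 also rose after ablation in CD24hi cells (1.23 ± 0.21). Their part in the Clu result was not tested.

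The 4 Clu probe sets correlated at 0.903 to 0.958 over the 20 sorted arrays, although 3 of them are of a kind whose probes may match other transcripts. In a fit of every probe set without a filter, all 4 were higher with NICD in CD24hi cells, by 4.32, 5.68, 3.59 and 2.999 (adjusted p = 0.0025, 0.00331, 0.0102 and 0.0769), so 3 of 4 passed, where 4.07% of all probe sets did. Without NICD CD24hi replicate 2 the same 4 differences were 3.94, 5.19, 3.32 and 2.53, and 1 of 4 passed (adjusted p = 0.044, 0.0534, 0.113 and 0.44). After ablation in CD24hi cells 2 of 4 passed, at 3.57 and 4.73 (adjusted p = 0.0272 and 0.0377), where 0.378% of probe sets did. In mean level Clu was highest in NICD CD24hi cells (9.65 ± 0.54 on the log2 scale, SD, n = 2), followed by Lgr5-ablated CD24hi (8.90 ± 0.85), NICD CD24lo (7.83 ± 0.60) and Lgr5-ablated CD24lo cells (7.77 ± 1.56). Arrays of each of these groups overlapped those of the next except between Lgr5-ablated CD24hi and NICD CD24lo cells, which came no closer than 299 and 290. A gap of 2.20 separated them from the other 6 groups, whose means lay between 4.55 and 5.56.

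**Figure D2:**
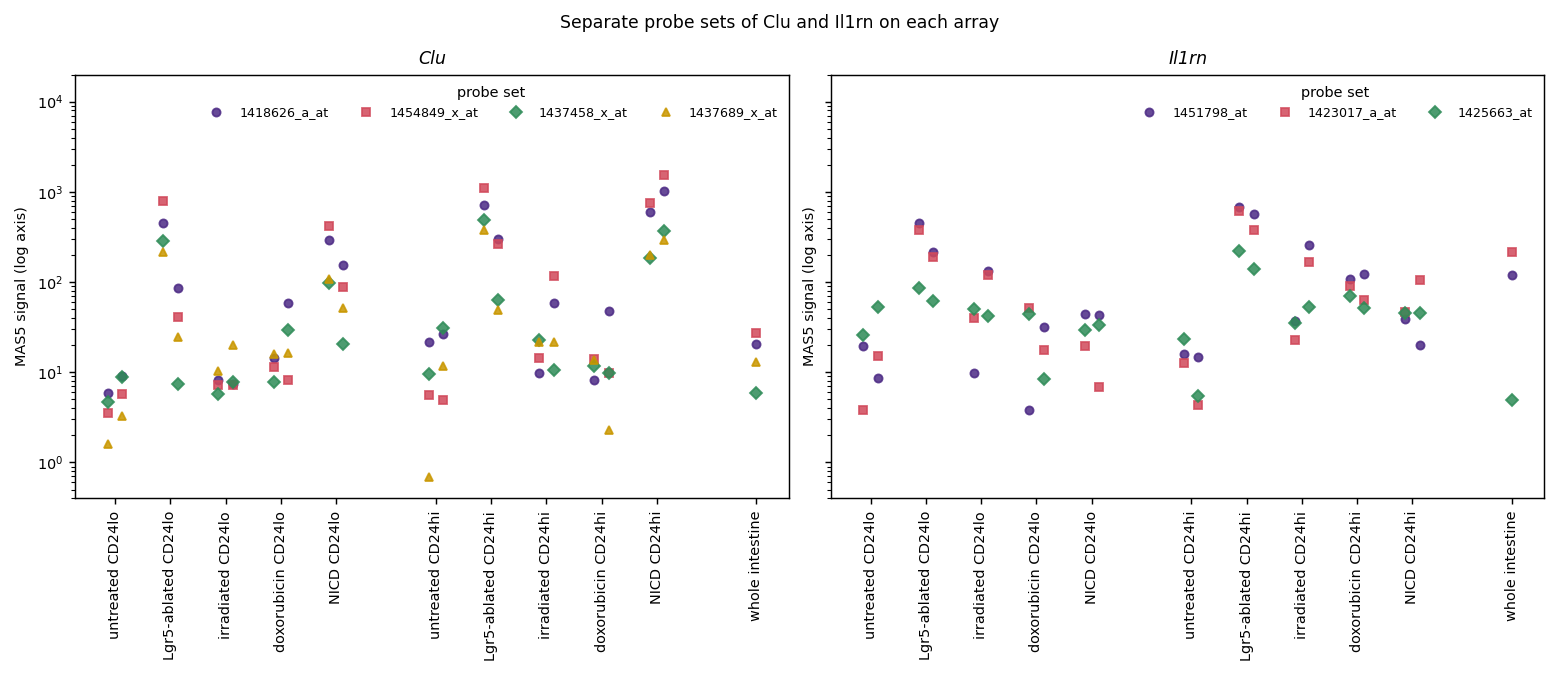
Signal (MAS5 intensity, log axis) of each probe set of Clu (4) and Il1rn (3) on 21 arrays, by group, with 1 point per array and replicate 1 at the left of each pair. The Clu probe sets are high together in Lgr5-ablated and NICD cells, and 2 of the Il1rn probe sets in Lgr5-ablated cells, while the Il1rn probe set drawn as diamonds is highest in Lgr5-ablated CD24hi cells.

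Il1rn encodes the interleukin 1 receptor antagonist, a secreted protein that occupies the interleukin 1 receptor without activating it. It was highest after Lgr5 ablation in both fractions. In CD24hi cells the signal was 16.1 and 14.7 in untreated mice and 680 and 569 after ablation. In CD24lo cells it was 19.5 and 8.69 untreated and 446 and 217 after ablation. The ablated arrays lay above all other sorted arrays of their fraction, and the groups did not overlap. With NICD the signal was 44.6 and 42.5 in CD24lo and 38.8 and 20.1 in CD24hi cells. After irradiation the replicates were far apart, at 9.72 and 132 in CD24lo and 36.7 and 257 in CD24hi cells. With doxorubicin they were 3.80 and 32.0 in CD24lo and 109 and 122 in CD24hi cells. The 4 CD24hi arrays after irradiation and doxorubicin exceeded both untreated ones, although 3 of them were below the median of their array.

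Il1rn rose after Lgr5 ablation in CD24hi cells by 4.35 ± 0.75 (adjusted p = 0.0065). With Clu, 2 of 4 tested members passed, against 0.852% of all genes. Both had entered the test through groups that include this one, so the count is no independent support. In CD24lo cells its difference was 3.47 ± 0.75 (adjusted p = 0.0725). There 0 of 4 members passed and 0.236% of all genes did, while 882 of the 11854 genes had an unadjusted p below 0.05, Clu and Il1rn among them. The difference of the ablation effect between fractions was 0.88 ± 1.06 (adjusted p = 0.996). The CD24hi call was lost without untreated replicate 1 (adjusted p = 0.0551), untreated replicate 2 (adjusted p = 0.0729) or ablated replicate 1 (adjusted p = 0.0683), with the value between 4.22 and 4.38. All 3 Il1rn probe sets passed in CD24hi cells in the fit of every probe set, by 4.35, 4.36 and 2.73 (adjusted p = 0.00946, 0.0033 and 0.00682). In CD24lo cells 1 of them did, at 3.52 ± 0.64 (adjusted p = 0.0447), where 0.103% of probe sets passed. Neutrophils also express this gene. Their 4 measured markers summed to 21.7 to 68.1 in Lgr5-ablated CD24hi cells and to 45.2 to 68.5 in untreated ones, and none was above the array median on 2 arrays. Of other leukocyte markers, Ptprc read 319 and 263 in Lgr5-ablated CD24hi cells against 127 and 80.8 in untreated ones. Cd68 went the other way, at 511 and 503 against 724 and 956. The part of leukocytes in the Il1rn result was not tested.

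In CD24hi cells the Il1rn difference was 2.07 ± 0.75 with doxorubicin (adjusted p = 0.256) and 1.93 ± 0.75 after irradiation (adjusted p = 0.194), and neither passed. With only the groups compared in the fit, the doxorubicin difference passed (adjusted p = 0.0258). In CD24lo cells the differences were 0.06 ± 0.75 with doxorubicin, 1.06 ± 0.75 after irradiation and 1.01 ± 0.75 with NICD. None of the 4 members that entered the gene test passed in CD24hi cells after irradiation or doxorubicin, where 4.44% and 1.2% of genes did (1887 and 1393 of 11854 with an unadjusted p below 0.05), nor in CD24lo cells, where 4.02% and 14.7% did (2492 and 3712 of 11854). At an unadjusted p below 0.05, Il1rn was the 1 member of these 4 in each of the CD24hi comparisons, and there was none of them in CD24lo cells. In mean level the Lgr5-ablated CD24hi (9.32 ± 0.18) and CD24lo cells (8.36 ± 0.70) were followed by doxorubicin CD24hi cells (7.04 ± 0.11, SD, n = 2). The arrays of these 3 groups did not overlap, whereas the irradiated CD24hi arrays (6.91 ± 1.68) spanned both doxorubicin CD24hi values and the lower of the 2 Lgr5-ablated CD24lo values.

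**Figure D3:**
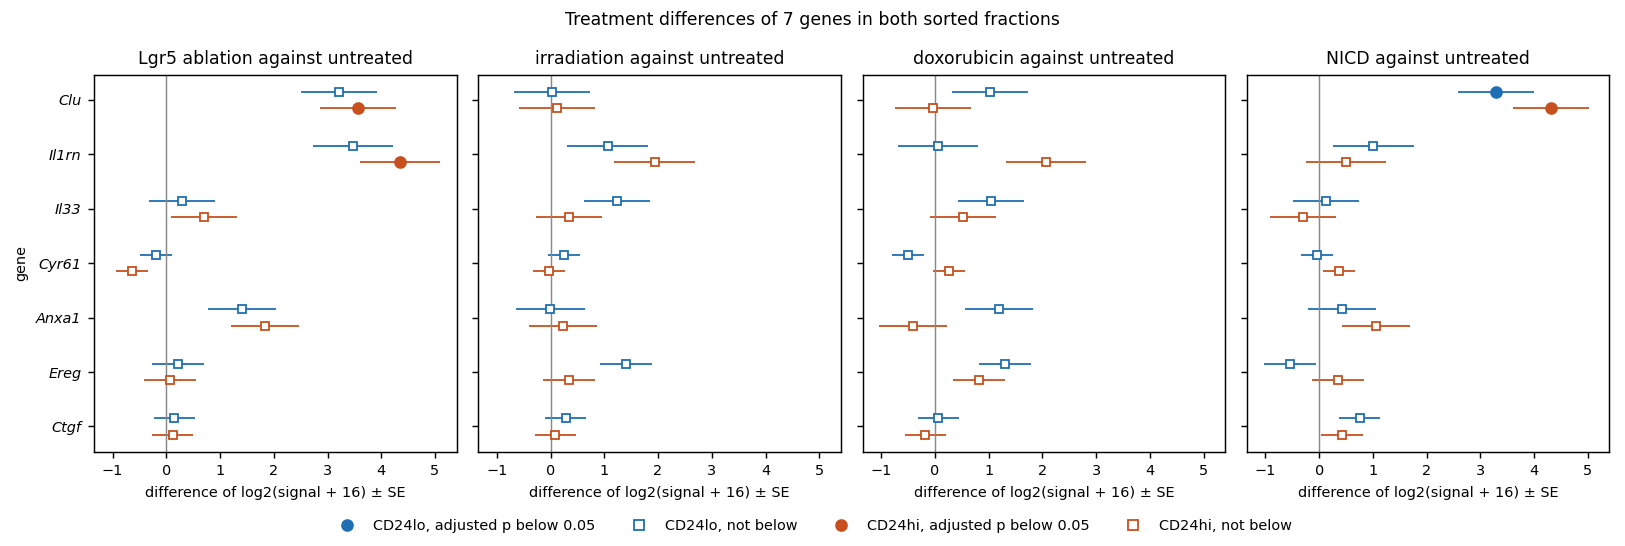
Difference of mean log2(signal + 16) against untreated cells, with its SE, for 7 genes after each of 4 treatments in CD24lo (blue) and CD24hi (orange) cells, 2 arrays per group. Filled circles passed an adjusted p of 0.05, which were Clu with NICD in both fractions and Clu and Il1rn after Lgr5 ablation in CD24hi cells. Anxa1, Ereg and Ctgf are dim and come from the fit of every probe set.

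Il33 encodes interleukin 33, a nuclear cytokine of the interleukin 1 family that is released from damaged cells and signals through the receptor encoded by Il1rl1. It was higher in CD24lo than in CD24hi cells in every condition. In untreated mice its signal was 169 and 129 in CD24lo and 30.0 and 20.8 in CD24hi cells. After Lgr5 ablation it was 92.1 and 354 in CD24lo and 40.2 and 63.9 in CD24hi cells, and with NICD 145 and 185 in CD24lo and 44.9 and 2.38 in CD24hi cells. The fractions did not overlap in any of these conditions. After irradiation it was 501 and 270 in CD24lo and 14.5 and 72.4 in CD24hi cells, and with doxorubicin 348 and 297 in CD24lo and 51.4 and 35.2 in CD24hi cells. Over the 10 arrays of a fraction the signal ran from 92.1 to 501 with a median of 228 in CD24lo cells, and from 2.38 to 72.4 with a median of 37.7 in CD24hi cells. Every CD24hi array was below its median signal.

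Averaged over the 5 conditions Il33 was lower in CD24hi cells by 2.28 ± 0.27 (log2 difference -2.28, adjusted p = 4.09e-06), and without NICD CD24hi replicate 2 the difference was -2.11 (adjusted p = 7.56e-06). The condition means ranged from -1.58 after ablation to -2.89 after irradiation. In untreated mice alone the difference was -1.99 ± 0.61 (adjusted p = 0.0386), which made Il33 the only one of 4 members past the threshold there, against 14.4% of all genes. That call was lost without any 1 of the 4 arrays (adjusted p = 0.0836 to 0.176), and with a pseudocount of 1 (adjusted p = 0.0887). Averaged over conditions 3 of 4 members passed, against 46.6% of all genes. Enterocyte markers moved with the same fraction. The summed signal of 6 measured markers was 42382 to 49638 in untreated CD24lo and 10924 to 15687 in untreated CD24hi cells, and all 6 passed as lower in CD24hi cells. Their part in the Il33 difference was not tested.

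Between conditions, Il33 in CD24lo cells was higher by 1.23 ± 0.61 after irradiation and by 1.04 ± 0.61 with doxorubicin, with arrays above both untreated ones in each case (adjusted p = 0.266 and 0.26). Neither passed, although the doxorubicin difference did with only the groups compared in the fit (adjusted p = 0.0482). The other 6 treatment differences lay between -0.30 and 0.70, and the lowest, with NICD in CD24hi cells, became 0.56 without replicate 2. In mean level the 5 CD24lo groups, from 7.35 ± 0.25 in untreated to 8.59 ± 0.60 in irradiated cells (SD, n = 2), all preceded the 5 CD24hi groups, from 5.06 ± 1.22 with NICD to 6.07 ± 0.36 after ablation. Within each fraction the arrays of every group overlapped those of the next in this order.

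Cyr61 encodes a secreted protein of the CCN family that binds integrins in the matrix and is among the best known targets of YAP and TEAD. It was abundant on every sorted array and higher in the CD24hi fraction. In untreated mice its signal was 1757 and 2929 in CD24lo and 3580 and 4661 in CD24hi cells. With NICD it was 2330 and 2083 in CD24lo and 4416 and 6286 in CD24hi cells, and with doxorubicin 1552 and 1627 in CD24lo and 4584 and 5187 in CD24hi cells. The fractions did not overlap in these 3 conditions. After ablation the signal was 2495 and 1561 in CD24lo and 2479 and 2744 in CD24hi cells, and after irradiation 3438 and 2138 in CD24lo and 5115 and 3136 in CD24hi cells. There the fractions overlapped. On whole intestine the signal was 66.8, just above that array's median and below all 20 sorted arrays, the lowest of which was 1552. The other 3 probe sets read 141, 2.39 and 5.66 there. Whole intestine had no replicate and no sorting step, so the contrast was not tested.

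Averaged over conditions Cyr61 was higher in CD24hi cells by 0.93 ± 0.13 (adjusted p = 2.47e-05), and by 0.88 without NICD CD24hi replicate 2 (adjusted p = 7.39e-05). Other markers moved with the same fraction. All 5 crypt base stem cell markers were higher in CD24hi cells on this average, among them Lgr5 at 3.15 ± 0.25, Sox9 at 1.95 ± 0.17 and Smoc2 at 1.87 ± 0.10, as were Dclk1, a tuft cell marker, at 3.49 ± 0.20 and 2 further secretory markers (Bhlha15 and Cd24a, both tied to the sort), while Atoh1 and all 6 enterocyte markers were lower. Of all genes 46.6% passed on this average, a share near the 57.1% of the tested secretory markers. The Atoh1 call was lost without NICD CD24hi replicate 2 (-0.20). The summed crypt base signal was 27981 to 29963 in untreated CD24hi and 11832 to 13777 in untreated CD24lo cells. Their part in the Cyr61 difference was not tested. In untreated mice the difference was 0.84 ± 0.30 (adjusted p = 0.0696). All 4 Cyr61 probe sets, which correlated at 0.929 to 0.984, passed on average over conditions in the fit of every probe set at 0.82 to 0.93 (0.80 to 0.88 without NICD CD24hi replicate 2), where 29.3% of probe sets did, and 3 of 4 passed in untreated mice at 0.85, 1.15 and 1.05, where 6.87% did. The untreated gene-level difference also passed as the mean of the probe sets (0.97, adjusted p = 0.00615) and with quantile normalization (0.93, adjusted p = 0.0412). It passed at 1.21 (adjusted p = 0.0306) without untreated CD24lo replicate 2. No treatment moved Cyr61 past the threshold at gene level. On the leading probe set its 8 differences lay between -0.64 ± 0.30 after ablation in CD24hi cells (adjusted p = 0.501) and 0.37 ± 0.30 with NICD in CD24hi cells (adjusted p = 0.471). The other 3 probe sets moved further. After ablation in CD24hi cells their mean log2 levels were 10.92, 10.69 and 10.39, against 11.79, 11.56 and 11.33 untreated. In CD24lo cells the third probe set stood at 11.01 after irradiation against 10.42 untreated. In mean level the order ran from 12.37 ± 0.36 in NICD CD24hi to 10.65 ± 0.05 in doxorubicin CD24lo cells (SD, n = 2), and the arrays of every group overlapped those of the next.

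Clu was also higher in CD24hi cells on average over conditions, by 0.87 ± 0.32 (adjusted p = 0.0332). This call was lost when any 1 of 11 arrays was left out, NICD CD24hi replicate 2 among them (0.79, adjusted p = 0.0686), and as the mean of its probe sets (0.81, adjusted p = 0.0777). The fractions did not overlap for Clu with NICD, where CD24hi exceeded CD24lo cells by 1.81, nor in untreated and irradiated mice, where all arrays were dim. Il1rn averaged 0.73 ± 0.33 higher in CD24hi cells (adjusted p = 0.0826), and on its leading probe set the direction varied. The fractions did not overlap with doxorubicin (2.09) and after ablation (0.96), nor with NICD, where CD24hi cells were lower (-0.42). They overlapped after irradiation (0.96) and in untreated mice (0.08). The lower NICD value rests on the leading probe set alone. With NICD the second probe set read 47.0 to 105 in CD24hi and 6.93 to 19.5 in CD24lo cells. The third read 45.5 to 45.7 in CD24hi and 29.3 to 33.5 in CD24lo cells, so both were higher in CD24hi cells.

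**Figure D4:**
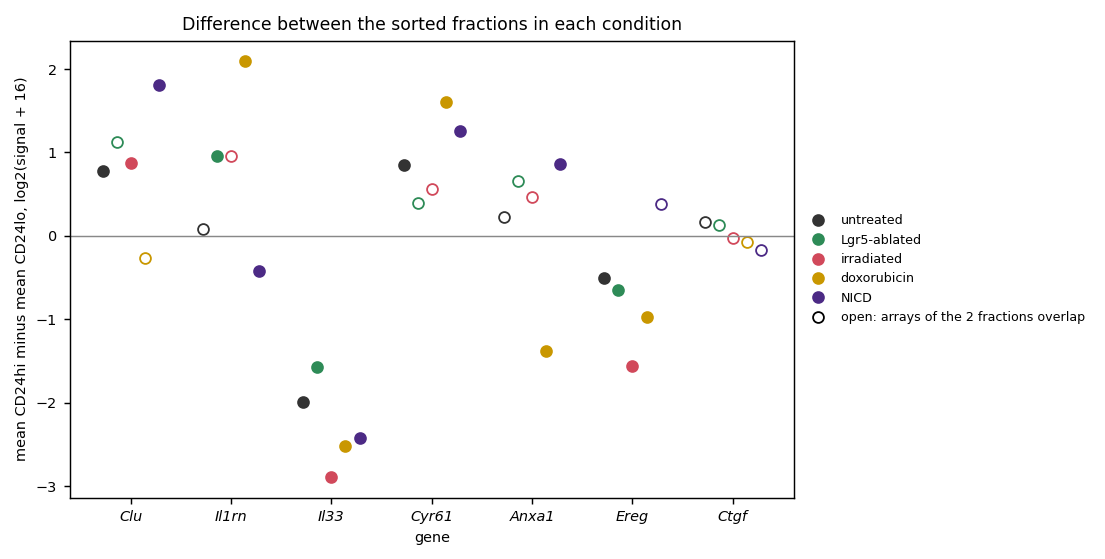
Mean CD24hi minus mean CD24lo level (log2 of signal + 16) of 7 genes in each of 5 conditions, 2 arrays per group, with open points where arrays of the fractions overlap. Il33 lies at -1.58 to -2.89 with no overlap in any condition, Cyr61 at 0.40 to 1.61, Ereg below 0 in every condition except NICD, and Ctgf within 0.17 of 0.

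Ctgf encodes connective tissue growth factor, a CCN protein like Cyr61 and likewise a standard target of YAP. It was dim throughout, at 2.50 to 36.0 on the sorted arrays and 29.5 on whole intestine, and it reached at most 0.232 times the median of its sorted array. The NICD arrays held both the highest values, 36.0 in CD24lo replicate 2 and 26.2 in CD24hi replicate 2, and low ones of 4.16 and 3.69 in replicate 1 of the same groups. All other sorted arrays were at or below 10.7. None of its differences passed in the fit of every probe set, and the one farthest from 0 was 0.75 ± 0.38 with NICD in CD24lo cells (adjusted p = 0.236). At these signals a change of Ctgf was not detectable, which does not show that it was absent.

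Ereg encodes epiregulin, a membrane-anchored ligand of the EGF receptor. It stayed below the array median everywhere, but its arrays fell into a pattern. In CD24lo cells the signal was 38.9 and 31.0 untreated, 113 and 124 after irradiation, and 102 and 116 with doxorubicin. These 4 treated arrays lay above every other sorted array. After Lgr5 ablation it was 45.5 and 40.9, and with NICD 4.71 and 43.2. In CD24hi cells it was 13.95 and 26.8 untreated, 19.6 and 23.7 after ablation, 10.5 and 61.9 after irradiation, 45.0 and 49.9 with doxorubicin, and 30.7 and 28.5 with NICD. The CD24hi signal was thus below the CD24lo signal with no overlap in every condition except NICD. In the fit of every probe set Ereg was lower in CD24hi cells on average over conditions, with a log2 difference of -0.66 ± 0.22 (adjusted p = 0.0273), and of -0.66 without NICD CD24hi replicate 2 (adjusted p = 0.0433). The differences in CD24lo cells of 1.40 ± 0.48 after irradiation and 1.30 ± 0.48 with doxorubicin did not pass (adjusted p = 0.15 and 0.107), in comparisons where 1.76% and 7.51% of probe sets did.

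Anxa1 encodes annexin A1, a protein that binds phospholipid membranes in the presence of calcium and limits inflammation. Its leading probe set read 190 and 27.8 in Lgr5-ablated CD24hi cells and 90.6 and 18.2 in Lgr5-ablated CD24lo cells, against 15.5 and 6.66 and 1.52 and 13.8 in the untreated cells of these fractions. Ablated replicate 1 of CD24hi cells was the only sorted array above its median. The ablated arrays exceeded the untreated ones with no overlap in both fractions, but the replicates differed widely, and the differences of 1.83 ± 0.63 and 1.40 ± 0.63 did not pass (adjusted p = 0.404 and 0.842). NICD CD24hi cells read 40.2 and 39.5, above both untreated arrays, with a difference of 1.06 ± 0.63 (adjusted p = 0.359). Doxorubicin CD24lo cells read 21.3 to 58.0, also above both untreated arrays of their fraction, with a mean log2 level of 5.71 against 4.51. The remaining sorted arrays lay between 1.55 and 27.2. The second Anxa1 probe set read 1.03 to 17.9 on sorted arrays and correlated with the first at 0.499. On whole intestine Anxa1 read 108, above that array's median.

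Other genes of the same pathways were read from lists chosen with earlier results of these data known. Of 12 tested repair and fetal-type epithelial genes, 3 rose after Lgr5 ablation in CD24hi cells, all of them annexins, where 0.852% of all genes passed. Anxa2 rose by 2.03 ± 0.25, Anxa3 by 1.88 ± 0.28 and Anxa5 by 1.28 ± 0.25 (adjusted p = 0.000365, 0.00179 and 0.0185), and none fell. The list's median was 0.60 against 0.00 over all genes. None of the 12 passed limma's test after ablation in CD24lo cells, where 0.236% of all genes did. At an unadjusted p below 0.05 there were 3 of the 12 and 882 of all 11854 genes, and the list's median was 0.38 against -0.03. Anxa3 also rose after irradiation, by 1.82 ± 0.28 in CD24hi and 1.32 ± 0.28 in CD24lo cells, the latter together with S100a6, a calcium-binding protein, at 1.26 ± 0.28. With doxorubicin Krt7 (keratin 7) and Ly6e fell in CD24lo cells, with log2 differences of -1.39 ± 0.30 and -0.997 ± 0.190. With NICD, Basp1, which encodes a membrane-bound protein, rose by 2.48 ± 0.46 in CD24hi cells, a call lost without NICD CD24hi replicate 2 (2.22, adjusted p = 0.0674). In CD24lo cells with NICD, Cd44, a hyaluronan receptor, and Ly6d rose by 1.46 ± 0.33 and 1.43 ± 0.39, while Krt19 fell (-0.99 ± 0.29). Between the fractions of untreated mice 41.7% of the 12 passed, against 14.4% of all genes. Averaged over conditions 83.3% passed, against 46.6%. Without NICD CD24hi replicate 2, Anxa2 and Anxa3 averaged lower in CD24hi than in CD24lo cells (-1.41 and -2.41), and Anxa5 higher (0.53).

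Of 18 tested components of the YAP and TEAD pathway, 0 passed after ablation or irradiation in either fraction by limma, with medians of 0.04 to 0.15. Of all genes 0.236% and 4.02% passed there in CD24lo cells, and 0.852% and 4.44% in CD24hi cells. Few calls are to be expected among 18 genes at such shares. At an unadjusted p below 0.05 there were 2 after ablation and 5 after irradiation in CD24lo cells, and 1 and 3 in CD24hi cells. Over all 11854 genes these counts were 882 and 2492 in CD24lo cells, and 1134 and 1887 in CD24hi cells. Between fractions of untreated mice 3 (16.7%) were higher in CD24hi cells and none lower, a share near the 14.4% of all genes that passed. They were Vgll4, which competes with YAP for TEAD, at 1.51 ± 0.32 and the DNA-binding proteins Tead2 and Tead1 at 1.18 ± 0.31 and 1.04 ± 0.31. With doxorubicin in CD24lo cells 1 rose and 4 fell (27.8%), where 14.7% of all genes passed. Among them were Tead1 at -1.40 ± 0.31 and Nf2, an upstream activator of the kinases, at -0.76 ± 0.24, both of which fell, while Wwc1 rose by 1.01 ± 0.28. Of 13 tested further target genes of YAP, 7.7% passed between the fractions of untreated mice, against 14.4% of all genes. Averaged over conditions 46.2% passed, near the 46.6% of all genes. Without NICD CD24hi replicate 2, only Ptpn14 of these averaged higher in CD24hi cells (0.80). The rest were lower, among them F3 (-1.20), Gadd45b (-1.20) and Crim1 (-0.71). With NICD in CD24hi cells 2 of the 13 rose and 1 fell (23.1%), where 6.56% of all genes passed. Nt5e, an enzyme that makes adenosine at the cell surface, rose by 3.90 ± 0.67 and Ccnd1, a cyclin, by 0.68 ± 0.18. Birc5 (survivin), which is also a gene of dividing cells, fell there (-1.21 ± 0.32). Without NICD CD24hi replicate 2 Nt5e passed at 3.81 (adjusted p = 0.034), whereas Ccnd1 (0.68, adjusted p = 0.157) and Birc5 (-0.90, adjusted p = 0.343) did not. Birc5 also fell with NICD in CD24lo cells (-1.13 ± 0.32). It likewise fell after irradiation, at -1.93 ± 0.32 in CD24lo and -1.81 ± 0.32 in CD24hi cells, and with doxorubicin in CD24lo cells, at -1.69 ± 0.32. Other targets rose in these CD24lo comparisons, namely Crim1 at 1.495 ± 0.464 and Dock5 at 0.61 ± 0.18 with NICD, Myof at 0.89 ± 0.24 after irradiation and Gadd45b at 1.08 ± 0.27 with doxorubicin, where Ccnd1 fell (-0.95 ± 0.18). None of the 13 passed after ablation in either fraction, where 0.236% of all genes passed in CD24lo and 0.852% in CD24hi cells. The medians were 0.29 in CD24lo and 0.26 in CD24hi cells, against -0.03 and 0.00 over all genes. In these comparisons 2 and 0 of the 13 had an unadjusted p below 0.05, as did 882 and 1134 of all 11854 genes.

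Of 12 tested genes for ligands, receptors and inhibitors of the EGF receptor family, Btc, which encodes the ligand betacellulin, rose under all 4 treatments in both fractions. The values, which share their untreated arrays within a fraction, were 1.75 ± 0.19 and 1.34 ± 0.19 after irradiation in CD24lo and CD24hi cells, 0.94 ± 0.19 and 1.21 ± 0.19 after ablation, 0.73 ± 0.19 and 1.25 ± 0.19 with doxorubicin, and 1.10 ± 0.19 and 0.83 ± 0.19 with NICD. Their adjusted p ran from 6.17e-05 after irradiation in CD24lo to 0.0417 after ablation in CD24lo cells. The NICD call in CD24hi cells was lost without replicate 2 of that group (0.90, adjusted p = 0.0516). Btc was lower in CD24hi than in CD24lo cells of untreated mice, at -1.08 ± 0.19 (adjusted p = 0.000859). Egf, the prototype ligand, was higher there by 1.76 ± 0.24 and fell in CD24hi cells after ablation, at -1.15 ± 0.24 (adjusted p = 0.0267). Nrg4, a ligand of ERBB4, rose with doxorubicin in CD24lo cells by 1.39 ± 0.39, and Errfi1, an intracellular inhibitor of the receptor, after irradiation in CD24lo cells by 1.10 ± 0.19. In all, 1 to 2 of the 12 rose under each treatment and fraction, and at most 1 fell. In CD24lo cells 8.3%, 16.7%, 16.7% and 25.0% passed after ablation, irradiation, doxorubicin and NICD. All genes passed there at 0.236%, 4.02%, 14.7% and 14.4%. In CD24hi cells the list's shares were 16.7%, 8.3%, 8.3% and 8.3%, against 0.852%, 4.44%, 1.2% and 6.56%. The list was thus near all genes with doxorubicin in CD24lo and with NICD in CD24hi cells.

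Of 7 tested further genes of the interleukin 1 family and its receptors, none passed limma's test after ablation or irradiation in either fraction. At most 1 had an unadjusted p below 0.05 in any of these. Of all genes 0.236% and 4.02% passed there in CD24lo cells, and 0.852% and 4.44% in CD24hi cells. Il18, a cytokine that caspase 1 activates, and Casp1, which encodes that enzyme, were lower in CD24hi than in CD24lo cells of untreated mice, at -2.57 ± 0.52 and -1.15 ± 0.31, as was Il33. Il18 rose with doxorubicin in CD24lo cells by 1.82 ± 0.52. Il18r1, a chain of the interleukin 18 receptor, rose with NICD by 2.92 ± 0.41 in CD24hi (3.08 without replicate 2, adjusted p = 0.00769) and 2.22 ± 0.41 in CD24lo cells, where Sigirr, a receptor that dampens this pathway, fell (-1.60 ± 0.35). Interferon-induced genes moved with Clu and Il1rn after ablation in CD24hi cells. Of 8 tested, 4 rose there, where 0.852% of all genes passed. They were Cxcl9 at 5.26 ± 0.47, Ido1 at 4.52 ± 0.43, Cxcl10 at 3.93 ± 0.61 and Gbp2 at 3.82 ± 0.43. The list's median was 2.62. In CD24lo cells 1 of 8 rose after ablation, Cxcl9 at 3.61 ± 0.47, where 0.236% of all genes passed. With NICD, where Clu also rose, 1 of 8 passed in CD24hi cells, Gbp2 at 1.56 ± 0.43 (1.42 without replicate 2, adjusted p = 0.272), and none in CD24lo cells (1 with an unadjusted p below 0.05). Genes of this list also passed where neither Clu nor Il1rn did. In CD24hi cells Cxcl9 rose with doxorubicin by 3.24 ± 0.47, where 1.2% of all genes passed. After irradiation Ifit3 and Irf1 fell in CD24hi cells, at -1.97 ± 0.51 and -0.71 ± 0.17, where 4.44% of all genes passed. Gbp3 fell with doxorubicin in CD24lo cells, at -1.97 ± 0.56, where 14.7% of all genes passed. The part of the interferon-induced genes in the results of Clu and Il1rn was not tested.

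Among the 4 detected members, levels over the 20 sorted arrays correlated at 0.45 for Clu and Il1rn and at -0.81 for Il33 and Cyr61 (Pearson), with the fractions' differences included. Within the 10 arrays of a fraction Clu and Il1rn correlated at 0.62 in CD24lo and 0.29 in CD24hi cells, and Il33 and Cyr61 at -0.20 and -0.71. Of all tested genes, Tnfrsf11b (0.884), BC064078 (0.872) and Fkbp1b (0.847) had the pattern most like that of Clu over the 20 arrays. For Il1rn they were Anxa5 (0.791), Icam1 (0.765) and Tom1 (0.763). For Il33 they were Nat2 (0.939), Pls1 (0.934) and Sowahb (0.933), and for Cyr61 Sec62 (0.922), Nr4a1 (0.917) and Reep5 (0.908). Within a fraction the 3 genes nearest Clu correlated with it at 0.72 to 0.95, and the 3 nearest Cyr61 at 0.63 to 0.93. These values describe the arrays, which share their groups, and carry no test.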

How the data were processed

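Gene expression was measured on Affymetrix arrays in 20 samples of sorted cells, in 10 groups of 2 taken from the labels, and in whole intestine. The deposited values are linear signal intensities for 45101 probe sets on each of 21 arrays, which the authors obtained with MAS5 according to the submitters' processing notes. The version is not given in the sources used here. After trimming 2 percent at each end, every deposited column had a mean intensity of 500. The table has no detection calls and no coordinates, so weak signal and background were not separated. For arrays depth is not counted, and the number of arrays limits precision.

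Signals were transformed as log2(signal + 16). Probe sets with 1 gene symbol (34958; 932 had several and 9211 none) were kept when above their array's median on at least 2 of the 20 sorted arrays, and the one with the highest mean log2 level stood for its gene, which gave 11854 genes. Limma 3.58.1 (R 4.3.3) was fitted with a mean per group, 10 residual degrees of freedom and moderated variances that follow the level, and p-values were adjusted by Benjamini-Hochberg over the genes of each of 14 two-sided comparisons, with 0.05 as threshold. A second fit took all 34958 probe sets without a filter. The procedure was tested on simulated data. The genes followed and all lists were chosen with earlier results of these data known. All 9 listed genes are named. Up to 4 genes per other list and comparison with the largest change past the threshold, and the 3 most similar patterns per detected gene, could be named. Promoters come from RefSeq, build GRCm38.p6. Alternatives were another pseudocount, filter, normalization, probe set summary, variance moderation, replicate block, arrays left out and the compared groups alone. The leukocyte sum without Lyz2, and the other listed genes and single probe sets without NICD CD24hi replicate 2, were added after seeing the data.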

Additional observations from a re-analysis of the deposited data

Results flagged for a closer look

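In whole intestine, outside every comparison, 3 members stood above all 4 untreated sorted arrays and above the median of their own array of 62.7. Il33 read 1638, against 20.8 to 169 in untreated sorted cells. Il1rn read 118, against 8.69 to 19.5, and 218 on its second probe set, while the third read 4.86, below all 4 untreated arrays (5.46 to 53.0). Anxa1 read 108, against 1.52 to 15.5, and its second probe set 6.79. Whole intestine is a single array without a replicate, and fibroblast, smooth muscle and endothelial markers were higher on it, with summed signals of 9048 and 1082 against at most 1102 and 601 in sorted cells. The leukocyte sum without Lyz2 was 5802 against 808 to 1767 in untreated sorted cells, with Ptprc at 2044 against 51.2 to 470, and the enterocyte sum was 161678 against 10924 to 49638. The part of these markers in the 3 signals was not tested. No member passed a test of the difference between the effects in the 2 fractions, and groups of 2 are too small for a check of single outlying arrays.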

How the results depend on the processing

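Of 1020 values of the 4 detected members under an alternative, 935 kept their direction and side of the threshold, 29 lost the call and 8 gained one, 48 changed sign with no call on either side, and 0 reversed with a call. With a pseudocount of 1 the count of members past the threshold moved from 1 to 0 between fractions of untreated mice and from 2 to 1 after ablation in CD24hi cells. Between fractions of untreated mice it was 0 without a filter, 2 with quantile normalization and 2 with the mean of probe sets, which gave 1 after ablation in CD24hi cells. Every probe set taken singly gave 1 after ablation in CD24lo cells. The compared groups alone gave 1 with doxorubicin in each fraction and have no counterpart for the average over conditions. The cause of these moves was not tested. With 1 array left out, where the lone array is assumed to vary like the others, the count ran from 0 to 1 between untreated fractions, 0 to 2 after ablation in CD24hi cells, 0 to 1 after ablation in CD24lo cells, 0 to 1 with NICD in CD24lo cells, 1 to 1 with NICD in CD24hi cells and 2 to 4 for the average over conditions, and was 0 in the other 8 comparisons. With the replicate number as a block, the number of members past the threshold was the same in all 14 comparisons, for example 3 for the average over conditions, and no call changed. The differences between replicates correlated at -0.41 to 0.38 over 45 pairs of groups (median -0.02, 11 above 0.1), so the numbers were not used as pairs. With pseudocounts of 1 and 64, the Clu difference with NICD in CD24hi cells was 4.97 and 3.27, and that of Il1rn after ablation in CD24hi cells 5.25 and 3.11. Dim signals limit the folds of Clu and Il1rn, whose untreated arrays lay below the median, and all of Anxa1, Ereg and Ctgf.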
